A study of Mus musculus with 24 samples.

Results

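A set of 6 transcription factor genes of natural killer (NK) cell maturation were followed across the series: Eomes, Tbx21 (T-bet), Zeb1, Zeb2, Prdm1 (Blimp-1) and Zfp683 (Hobit). They were taken by gene name from the table of 45237 genes, 5 of the 6 were among the 17097 genes with enough reads to be tested, and Zfp683 was not. RNA-seq was done on NK cells sorted from the spleen of wild-type C57BL/6J mice, giving 24 libraries in 7 groups. The 4 control libraries came from mice without tumor. RMA is a mouse T lymphoma line, and its libraries were taken 2 days (early, n = 3), 4 days (intermediate, n = 3) and 9 days (late, n = 3) after injection. RMA-KR is 1 clone of RMA made deficient for B2m, and therefore for surface MHC-I, and given the NKG2D ligand Rae1-β. Both lines carried a fluorescent reporter. RMA-KR libraries were taken at 2 days (early, n = 3), 7 days (intermediate, n = 5) and 14 days (late, n = 3). No NK cell gene was altered in any group, and all tumor groups were compared with the same 4 controls. The tumor and the day cannot be told apart at the intermediate and late stages, because the days differ between the models. Cells were sorted as positive for NKp46 or NK1.1 and negative for CD3, CD5 and TCR. The labels do not say whether each library is 1 mouse. The study counts its late-stage groups in mice and gives no such unit for the other stages, where p-values measure the spread between these libraries.

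NK cells pass from a CD27-high immature to a CD11b-high mature stage in the spleen, and T-box factors drive this transition. Eomes and T-bet bind the same DNA element and share part of their targets, and T-bet is needed for the last steps and for keeping Eomes-low relatives of NK cells, the type 1 innate lymphoid cells (ILC1). Zeb2 acts with T-bet in terminal maturation, whereas its paralog Zeb1 is usually the counterpart that is high where Zeb2 is low in T cells. Blimp-1 is a repressor that is raised during terminal maturation, and Hobit, its homolog, is best known from tissue-resident lymphocytes and ILC1.

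Promoters are shown because Eomes and Zeb2 passed edgeR's test of any difference among the 7 groups, and because Tbx21 and Prdm1 carry a match to a motif of the same family of regulators. The RefSeq promoter table (GRCm38.p6) held 4 of the 6 genes, Eomes, Tbx21, Prdm1 and Zeb2, and Zeb1 and Zfp683 were not matched in it. The 250 bases before the start site were searched on both strands for the T-box core AGGTGT, the E-box CAGGTG that ZEB proteins bind, and the core GAAAGT of Blimp-1 and IRF sites. AGGTGT and CAGGTG overlap by the letters AGGTG. Among 32851 promoters of the same length, 11.8% held AGGTGT, 17.2% CAGGTG and 12.3% GAAAGT. The sequences run 5′ to 3′ on the strand of the gene, and capitals mark a match.
Eomes promoter (chr9:118477939-118478188, plus strand): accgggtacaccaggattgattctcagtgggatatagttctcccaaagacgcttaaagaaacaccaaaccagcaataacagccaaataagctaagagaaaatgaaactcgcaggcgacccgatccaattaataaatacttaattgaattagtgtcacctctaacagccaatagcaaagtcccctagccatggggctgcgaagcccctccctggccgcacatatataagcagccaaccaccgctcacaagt
Tbx21 promoter (chr11:97115332-97115581, minus strand): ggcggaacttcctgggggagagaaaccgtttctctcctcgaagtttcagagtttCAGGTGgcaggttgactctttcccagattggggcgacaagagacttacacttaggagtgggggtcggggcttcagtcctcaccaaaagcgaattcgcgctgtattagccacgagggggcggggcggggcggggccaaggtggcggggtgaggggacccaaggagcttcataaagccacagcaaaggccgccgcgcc
Zeb2 promoter, first of 4 listed starts (chr2:45117443-45117692, minus strand): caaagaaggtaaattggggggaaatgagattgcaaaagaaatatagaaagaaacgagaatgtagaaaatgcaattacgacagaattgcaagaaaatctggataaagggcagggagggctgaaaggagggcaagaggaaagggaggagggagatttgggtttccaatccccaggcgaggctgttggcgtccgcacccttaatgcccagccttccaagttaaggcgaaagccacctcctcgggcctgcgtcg
Prdm1 promoter, at a start inside the annotated gene (chr10:44458749-44458998, minus strand): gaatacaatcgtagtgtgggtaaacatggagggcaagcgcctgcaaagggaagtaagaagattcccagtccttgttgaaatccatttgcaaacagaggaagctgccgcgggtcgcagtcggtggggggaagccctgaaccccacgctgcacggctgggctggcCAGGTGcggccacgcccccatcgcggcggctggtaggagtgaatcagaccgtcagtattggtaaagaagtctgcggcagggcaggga
The Tbx21 window held CAGGTG at -196 to -191 and the Prdm1 window held it at -87 to -82. None of the 3 motifs was found in the Eomes window or before the first Zeb2 start, which says only that these letters are not in these windows. A single stretch with the reverse of GAAAGT lies before 2 other listed Zeb2 starts, which are close together and not shown, at -172 to -167 from one and -198 to -193 from the other. A match is a description of the letters and not a bound site.

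On the mm10 assembly, Eomes (ENSMUSG00000032446) lies on chromosome 9 at 118478212 to 118486132, Tbx21 (ENSMUSG00000001444) on chromosome 11 at 97098071 to 97115331, Zeb2 (ENSMUSG00000026872) on chromosome 2 at 44983632 to 45117395, Prdm1 (ENSMUSG00000038151) on chromosome 10 at 44437177 to 44528501 and Zfp683 (ENSMUSG00000049410) on chromosome 4 at 134053838 to 134058996. Zeb1 is ENSMUSG00000024238. Reads were counted over the exons of each gene. An antisense gene, Gm33460, shares 118 exonic bases with Eomes and had 2015 reads over all libraries, beside 63217 for Eomes. Zeb2os shares 653 bases with Zeb2 on the other strand and had 46 reads. The strand setting of the counting is not given in the sources used here, so reads of such pairs may not be separable.

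Read depth ran from 5138651 to 14863500 counts per library (median 10489204). Values are given as normalized CPM, that is read counts put on a common library size with the trimmed mean of M-values (TMM), and a value is only comparable between genes after division by exon length. Markers of NK cells were high in all 24 libraries, with a summed level of 14530 to 20170 CPM over 8 genes. Markers of other cells were lower but not all at 0. Of the T cell list, which summed to 422 to 801 CPM, Cd3e reached at most 5.0 CPM, Cd5 23.5, Cd3g 24.2 and Cd3d 30.6, and Trbc1 was at 181 to 419. The B cell list summed to 213 to 525 CPM, with Ighm at 213 to 483 and Cd22 at up to 46.6. The plasma cell list summed to 143 to 442 CPM, mostly Xbp1 (129 to 332), with Ighg2b at up to 116. The dendritic cell list summed to 471 to 1200 CPM, mostly Itgax (377 to 1075), with H2-Aa at up to 40.4. Granulocyte markers together reached at most 12.4 CPM and red blood cell markers at most 3.83. Several sums moved with the groups. The T cell sum was 546 to 634 CPM in the controls, 422 to 477 in RMA intermediate and 636 to 801 in RMA-KR early. The plasma cell sum was 175 to 262 CPM in the controls and 288 to 318 in RMA intermediate. The dendritic cell sum was 471 to 728 CPM in the controls, 866 to 1012 in RMA intermediate, 789 to 1110 in RMA late and 856 to 1022 in RMA-KR late. These groups did not overlap the controls. The dendritic cell sums were mostly Itgax, and Flt3, Clec9a and Siglech were at 0 in every RMA intermediate library. Siglech was at 0 in RMA late and Clec9a in RMA-KR late. Macrophage and monocyte markers summed to 8.7 to 18.7 CPM in the controls, 29.3 to 32.1 in RMA-KR early, 34.2 to 51.2 in RMA late and 39.6 to 80.2 in RMA-KR late, mostly from Cd68, with C1qa and C1qb at 0 or near it. The part of these lists in the results below was not tested. In bulk libraries, fewer cells of a type and less RNA per cell cannot be told apart.

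A set of 4 libraries stood apart from the other 20 in immediate early genes: control 4 and RMA-KR intermediate 3, 4 and 5. Fos was 67.3 to 88.3 CPM in these 4 and 403 to 1910 in the others, and Jun was 91.2 to 155 and 363 to 1045. Zeb2 was 108 to 278 CPM in the 4 and 317 to 502 in the 5 remaining libraries of the same 2 groups. Prdm1 was 46.5 to 105 CPM in the 4 and 110 to 221 in those 5 libraries. Eomes (213 to 380 CPM in the 4, 255 to 388 in the 5), Tbx21 (657 to 1032 and 673 to 1025) and Zeb1 (18.3 to 40.8 and 33.0 to 56.0) overlapped. The summed level of the 11 genes of mature NK cells was 11743 to 15094 CPM in the 4 and 17909 to 31863 in the other 20, and that of the 11 genes of immature NK cells overlapped (3778 to 4941 and 2360 to 5192). Other regulators of the NK lineage, a list described below, summed to 5706 to 6414 CPM in the 4 and 7493 to 9860 in the other 20. The summed level of 8 ILC1 genes was 200 to 399 CPM in the 4 and 46.6 to 212 in the other 20. The 4 libraries were recognized after the data were seen, and no test was made of the split. The share of all genes that separate these libraries likewise is not given here. The separation is therefore not shown to be particular to Zeb2 or Prdm1. Several results for Zeb2 and Prdm1 are given with and without them, but not every comparison that they moved.

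**Figure D1:**
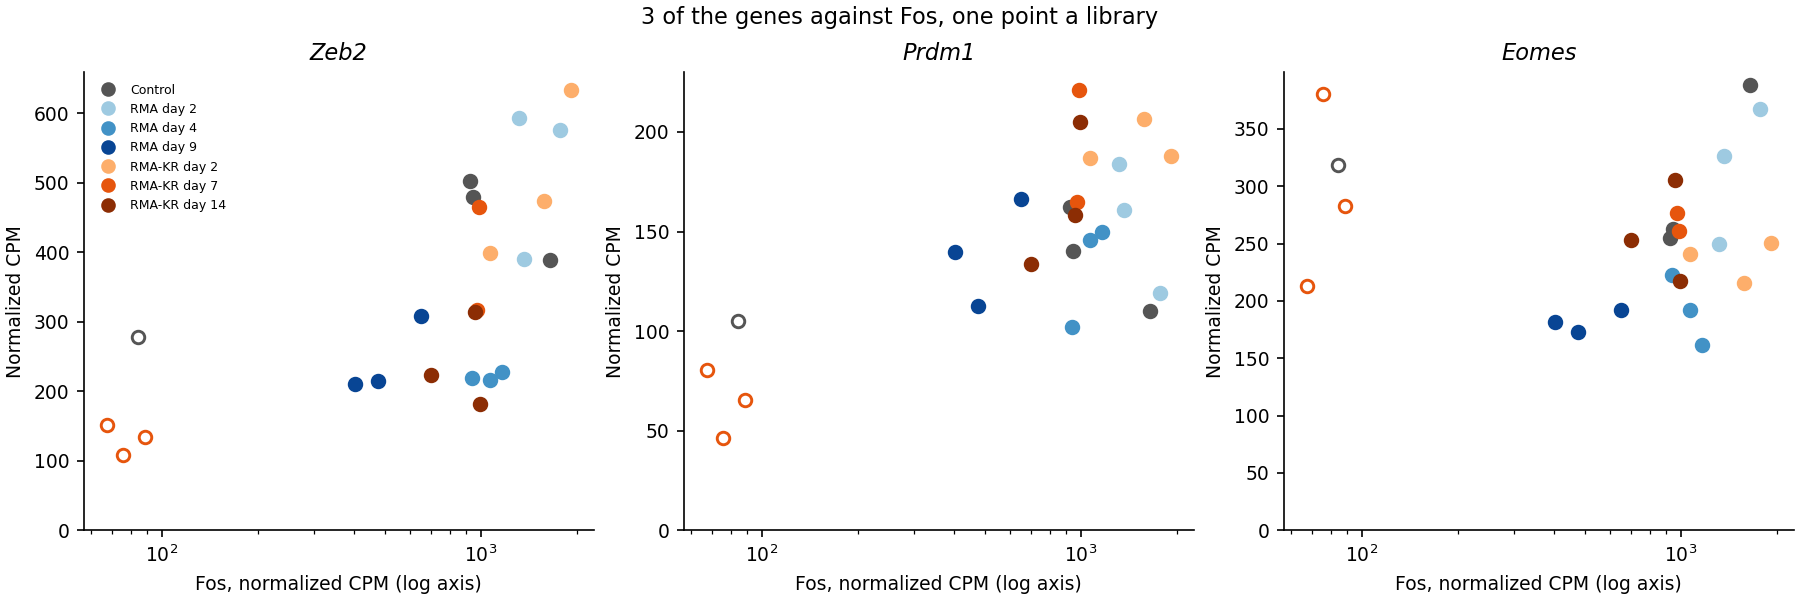
Normalized CPM of Zeb2, Prdm1 and Eomes (vertical axis, from 0) against Fos (horizontal, log axis), 1 point per library and colored by group. The 4 open points, with Fos at 67.3 to 88.3 CPM, are control 4 and RMA-KR intermediate 3, 4 and 5, and they include the lowest Prdm1 values but not the lowest Eomes values.

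Tbx21 was the most abundant of the 6 genes per length, at 295 normalized CPM per kilobase of exon averaged over all libraries (rank 130 of 17097 tested genes). Eomes followed at 62.0 (rank 781), then Prdm1 at 25.8 (rank 2119), Zeb2 at 16.7 (rank 3137) and Zeb1 at 4.09 (rank 7231). Zfp683, at 0.127, was close to absent.

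Of 70 tests of the 5 genes over 14 comparisons, only the fall of Eomes in RMA late was called (adjusted p under 0.05, quasi-likelihood test of edgeR), so 1 test passed, and the fall was under 2-fold. At an unadjusted p under 0.05 there were 24 (34.3%), beside 11.5% of the tests of all genes in these comparisons. DESeq2 called 7, or 6 with the prior that the study used, where it called 41 to 1363 and 0 to 1130 of all genes in a comparison. DESeq2 used its own filter, so these counts are not shares of the genes tested by edgeR. Over all tested genes the share called was 2.66% in RMA late, 2.35% in RMA intermediate, 1.22% in RMA-KR late, 0.0994% in RMA-KR early, 0.0175% in RMA-KR intermediate and 0.0% in RMA early, each against control. It was 0.339%, 0.643% and 0.0% between the models at the early, intermediate and late stage. For consecutive stages it was 2.33% for RMA intermediate against early, 0.0% for RMA late against intermediate, 0.632% for RMA-KR intermediate against early and 0.328% for RMA-KR late against intermediate. In the test of any difference among the 7 groups, 2 of the 5 genes passed, Eomes (adjusted p = 0.0435) and Zeb2 (0.0498), against 5.69% of all tested genes. Eomes lost this call in 4 of 7 other settings, among them with no filter on low counts (0.0611), without the 4 libraries low in Fos and Jun (0.0697) or with a term for them (0.0699). It passed in 9 of 24 fits without 1 library, with adjusted p up to 0.126. Tbx21 (0.0559), Zeb1 (0.134) and Prdm1 (0.636) did not pass, and DESeq2 called Eomes, Tbx21, Zeb1 and Zeb2 in this test. The share of all genes that DESeq2 called in it is not given here.

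**Figure D2:**
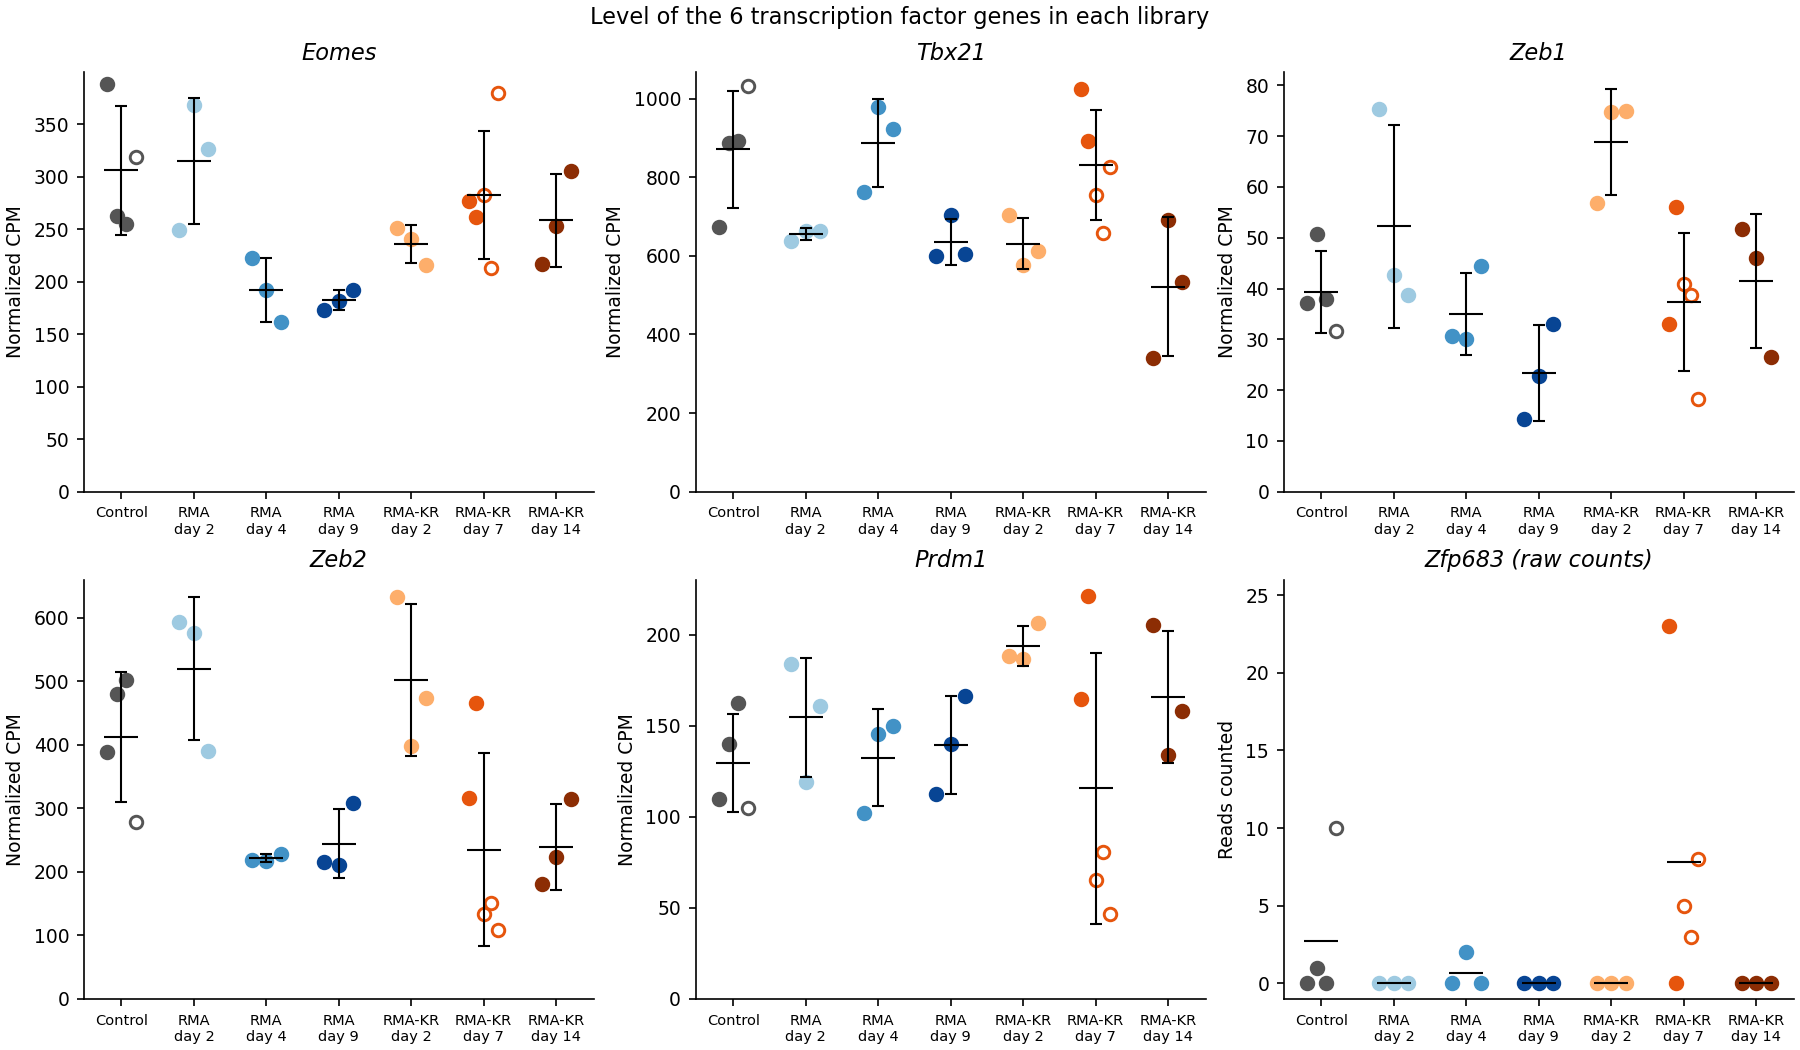
Level of each gene in each library by group: normalized CPM for 5 genes, and raw reads for Zfp683. Points are libraries, bars the mean ± SD (for Zfp683 the mean alone), and open points the 4 libraries low in Fos and Jun. The means of Eomes are lowest in RMA day 4 and day 9 (libraries at 161.3 to 222.7 CPM), and Zeb2 is above 390 CPM in all day 2 libraries.

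Eomes, the T-box factor that defines NK cells against ILC1, was lower after day 2 in mice with RMA. It was 387.9, 262.5, 254.9 and 318.6 CPM in the controls and 249.4, 367.6 and 326.1 in RMA early. It was 222.7, 192.0 and 161.3 CPM in RMA intermediate and 173.2, 181.3 and 192.2 in RMA late. All 6 libraries of the later RMA stages were below all 4 controls. Those of RMA intermediate were also below all 3 libraries of RMA early, as for 9.45% of all genes.

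Eomes fell in RMA late to 0.596 times the control level (log2 fold change -0.75, SE 0.19, adjusted p = 0.0352, edgeR), and 0.521% of all genes were called lower there. The mean was 182 ± 9.5 CPM in RMA late (SD, n = 3) and 306 ± 61.6 in the controls (n = 4). The value in RMA intermediate was similar in size, -0.67 (SE 0.19), and did not pass (adjusted p = 0.0700). It passed in 3 of 9 other settings, with at least 10 counts in every library (0.0318) and in DESeq2 without (0.0234) and with its prior (0.0186), and in none of the 7 fits without 1 library. Against RMA early it was -0.71 (adjusted p = 0.0655), and it passed in 4 of 9 other settings, DESeq2 (0.0108) among them, and in none of the 6 fits without 1 library. Groups without overlap and with the tumor group lower were found for 8.81% of all genes in RMA late and for 10.5% in RMA intermediate. The call in RMA late kept its direction in all 9 other settings and all 7 fits without 1 library of the groups compared. It was lost without control 1 (adjusted p = 0.131), control 4 (0.0798), RMA late 1 (0.236), 2 (0.204) or 3 (0.0812), with no filter on low counts (0.136), and without the 4 libraries low in Fos and Jun (-0.72, adjusted p = 0.0771).

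In mice with RMA-KR, no difference of Eomes from control passed, and 6 of the 11 libraries were below the lowest control. It was 250.7, 240.8 and 215.8 CPM early, 276.3, 261.1, 282.3, 213.4 and 379.9 at the intermediate stage, and 217.0, 253.1 and 305.2 late. Only the early libraries were all below the 4 controls, and there 6.01% of all genes were likewise without overlap and lower. The log2 fold changes against control were -0.38, -0.11 and -0.24 (adjusted p = 0.592, 0.999 and 0.583). Between the models, RMA minus RMA-KR was 0.42 at the early stage (adjusted p = 0.411), -0.56 at the intermediate stage (adjusted p = 0.247) and -0.50 at the late stage (adjusted p = 0.655). The 3 libraries of RMA late were all below those of RMA-KR late, as they were for 3.95% of all genes. The change from early to late, RMA minus RMA-KR, was -0.92 on the log2 scale (SE 0.29, adjusted p = 0.362), where 0.0% of all genes were called. None of these tests of the models passed for Eomes.

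Tbx21, whose product T-bet drives terminal maturation and interferon-γ expression, was lowest in mice with late RMA-KR tumors. It was 672.9, 885.8, 893.1 and 1032.3 CPM in the controls and 339.0, 691.9 and 532.5 in RMA-KR late. Only RMA-KR late 2 reached the control range, by lying above control 1. The level was 0.598 times that of the controls (log2 -0.74, SE 0.19), which did not pass (adjusted p = 0.0569). It passed in 5 of 9 other settings, among them DESeq2 (adjusted p = 0.0128). It also passed when control 1 (0.0368) or RMA-KR late 2 (0.0208) was left out. Without the 4 libraries low in Fos and Jun it was -0.61 (adjusted p = 0.187).

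Tbx21 levels also differed between the earlier stages, without a call. The 6 libraries at day 2 were at 576.4 to 703.7 CPM, with 637.5, 662.8 and 664.1 in RMA early and 703.7, 576.4 and 613.5 in RMA-KR early. All of RMA early was below all controls, as for 4.94% of all genes (log2 -0.41, adjusted p = 0.705). The intermediate libraries were mostly higher, at 761.7, 978.1 and 922.6 CPM with RMA and 1025.4, 893.3, 754.4, 657.1 and 826.7 with RMA-KR. RMA late was again at 600.8, 703.9 and 604.0 CPM. Every RMA intermediate library was above every library of RMA early, as for 13.1% of all genes, and every library of RMA late was below them, as for 5.55%. These differences did not pass: log2 0.44 against early (adjusted p = 0.235) and -0.48 for late against intermediate (adjusted p = 0.901). For RMA-KR late against intermediate the log2 difference was -0.67 (adjusted p = 0.151), and it passed in 3 of 9 other settings and with RMA-KR late 2 left out (0.0404).

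Because Eomes and T-bet divide the control of maturation between them, their balance was computed in each library as a log2 ratio of CPM. The CPM were not divided by exon length, so the ratio is read between groups and not as the excess of one gene over the other. The log2 ratio of Tbx21 to Eomes was 1.51 ± 0.48 in the controls (SD, n = 4). The ratio was 1.08 ± 0.26 in RMA early, 2.21 ± 0.39 in RMA intermediate and 1.80 ± 0.15 in RMA late, and 0.97 ± 0.43 in RMA-KR late. The control libraries ranged from 0.79 to 1.81. The difference from control was -0.44 in RMA early (exact permutation test, 2-sided, p = 0.229), 0.70 in RMA intermediate (p = 0.0571) and -0.55 in RMA-KR late (p = 0.2). Without control 1 it was -0.68 in RMA early and 0.46 in RMA intermediate. With 3 libraries against 4 this test cannot go below 0.0286, and none of the 12 ratio tests passed after adjustment over them, the lowest adjusted p being 0.254.

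Zeb2, the zinc finger factor that acts with T-bet in terminal maturation, had its highest group means at day 2 and lower ones at every later stage in both models, and none of these differences passed, although some did under other settings given below. It was 388.1, 479.7, 501.8 and 278.2 CPM in the controls, the last being control 4. It was 593.6, 575.3 and 390.2 CPM in RMA early and 632.5, 398.4 and 474.2 in RMA-KR early. All 6 libraries at day 2 were at or above 390 CPM.

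At later stages Zeb2 was 218.9, 216.4 and 228.3 CPM in RMA intermediate and 215.1, 210.6 and 308.1 in RMA late. It was 316.6, 465.2, 134.2, 151.5 and 108.0 CPM in RMA-KR intermediate and 181.5, 223.9 and 314.1 in RMA-KR late. RMA intermediate lay below all controls and below all of RMA early, without overlap, as for 10.5% and 9.45% of all genes. In RMA-KR intermediate the 3 low values are libraries 3, 4 and 5, those low in Fos and Jun.

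Against control, the log2 fold changes of Zeb2 were 0.34 and 0.28 at day 2 in RMA and RMA-KR, and 0.24 and 0.17 without the 4 libraries low in Fos and Jun, or 0.040 and -0.011 with a term for them. They were -0.90 in RMA intermediate (adjusted p = 0.259), -0.75 in RMA late (0.358), -0.81 in RMA-KR intermediate (0.737) and -0.78 in RMA-KR late (0.341). In RMA intermediate Zeb2 passed in 4 of 9 other settings (lowest adjusted p = 0.0074, edgeR). In RMA late (0.0182), RMA-KR intermediate (0.0280) and RMA-KR late (0.0265) it passed in 1 of 9 each. It passed against control in no fit without 1 library. From early to intermediate the log2 difference was -1.23 in RMA (SE 0.39, adjusted p = 0.0957), to 0.426 times the early level, and -1.09 in RMA-KR (adjusted p = 0.127). The first of these passed in 7 of 9 other settings and in none of the 6 fits without 1 library. The second passed in 3 of 9 other settings and in 1 of the 8 fits without 1 library. The biological coefficient of variation was 0.335 for Zeb2, 0.336 for Zeb1 and 0.333 for Prdm1, against 0.194 for Eomes and 0.195 for Tbx21.

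Without the 4 libraries low in Fos and Jun, the spread of Zeb2 was smaller and several values changed. The log2 fold change against control was -1.03 in RMA intermediate (SE 0.24, adjusted p = 0.0327), -0.89 in RMA late (0.0702) and -0.88 in RMA-KR late (0.106). RMA intermediate against early was -1.27 (adjusted p = 0.0126). In contrast, RMA-KR intermediate was left with 2 libraries and its value went from -0.81 to -0.21 (adjusted p = 0.934), and from -1.09 to -0.38 against RMA-KR early (0.597). The test over all groups gave an adjusted p of 0.00444 for Zeb2. In that test Zeb2 passed in 7 of 7 other settings and in 6 of 24 fits without 1 library, with adjusted p from 0.0036 to 0.105.

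Zeb1, a repressor and the paralog of Zeb2, was the least abundant of the tested genes. It was 37.1, 50.7, 38.0 and 31.7 CPM in the controls and 56.8, 74.8 and 75.0 in RMA-KR early, all above the controls. This was a log2 difference of 0.81 (SE 0.35, adjusted p = 0.545), and 4.5% of all genes were likewise higher without overlap. In RMA early it was 75.3, 42.7 and 38.7 CPM. In RMA intermediate it was 30.7, 30.0 and 44.4 CPM and in RMA late 14.4, 22.7 and 33.1, with a log2 difference from control of -0.75 (SE 0.36, adjusted p = 0.350). RMA-KR intermediate (33.0, 56.0, 40.8, 38.7 and 18.3 CPM) and RMA-KR late (51.7, 46.0 and 26.6) overlapped the controls. All 5 libraries of RMA-KR intermediate were below those of RMA-KR early (log2 -0.88, SE 0.33, adjusted p = 0.232), as for 4.27% of all genes. Zeb1 and Zeb2 both had their highest group means at day 2, whereas in RMA-KR late the library highest in Zeb1 was the lowest in Zeb2.

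The ratio of Zeb2 to Zeb1 was 3.36 ± 0.26 on the log2 scale in the controls (SD, n = 4). It was 2.68 ± 0.27 in RMA intermediate (difference -0.69, exact permutation p = 0.0286, the smallest that 3 against 4 can give) and 2.51 ± 0.67 in RMA-KR intermediate (difference -0.86, exact permutation p = 0.0635), where libraries 1 and 2 were at 3.26 and 3.05 and libraries 3, 4 and 5, those low in Fos and Jun, at 1.71, 1.96 and 2.55. It was 2.55 ± 0.90 in RMA-KR late (difference -0.82, exact permutation p = 0.171) and 2.85 ± 0.56 in RMA-KR early (difference -0.52, exact permutation p = 0.2). Single libraries moved both: RMA-KR late was at -0.45 without its library 1 and -1.32 without its library 3, and RMA-KR early at -0.83 without its library 1 and -0.30 without its library 2. It was 3.43 ± 0.39 in RMA late and 3.35 ± 0.39 in RMA early, both within 1 SD of the control mean. None of these passed after adjustment over the 12 tests.

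**Figure D3:**
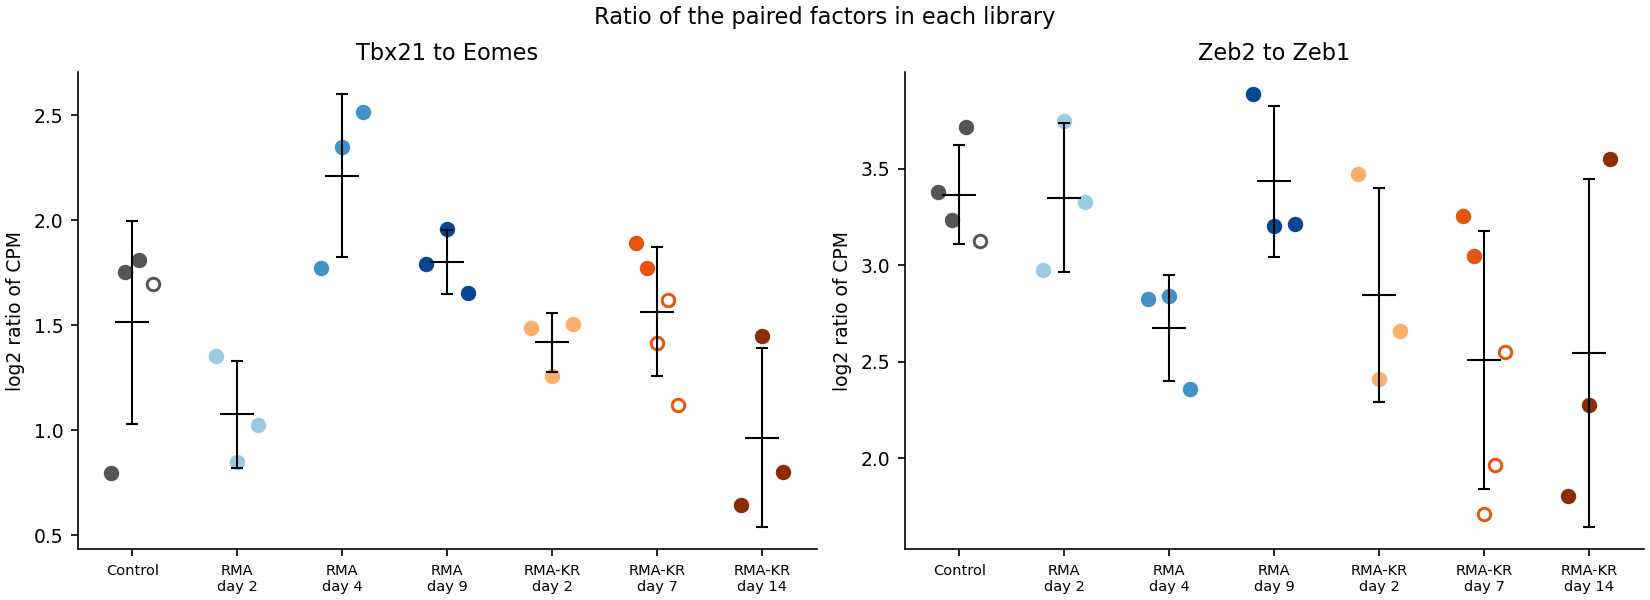
Log2 ratio of CPM of Tbx21 to Eomes and of Zeb2 to Zeb1 in each library (points) with the mean ± SD of each group; open points are the 4 libraries low in Fos and Jun. The ratio of Tbx21 to Eomes is highest in RMA day 4 (mean 2.21) and lowest in RMA-KR day 14 (mean 0.97).

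Prdm1, which encodes the repressor Blimp-1, showed no call in any comparison. It was 110.0, 140.0, 162.2 and 105.0 CPM in the controls and 188.0, 186.7 and 206.3 in RMA-KR early, and all 3 libraries of RMA-KR early were above the control range, as for 4.5% of all genes. The log2 difference was 0.58 (SE 0.35, adjusted p = 0.685), 0.53 without the 4 libraries low in Fos and Jun and 0.28 with a term for them. RMA early was below RMA-KR early in all libraries (log2 -0.33, adjusted p = 0.793), as for 7.21% of all genes. It was 183.7, 119.3 and 160.6 CPM in RMA early, 102.0, 145.7 and 149.9 in RMA intermediate and 112.4, 139.8 and 166.3 in RMA late. All of these overlapped the control range. RMA-KR late was at 205.2, 133.7 and 158.0 CPM.

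RMA-KR intermediate held both the highest and the lowest Prdm1 values of the series, 164.8 and 221.2 CPM in libraries 1 and 2 and 65.3, 80.6 and 46.5 in libraries 3, 4 and 5. The log2 fold change against control was -0.16 with all libraries (SE 0.31, adjusted p = 0.999), 0.51 without the 4 libraries low in Fos and Jun (adjusted p = 0.733) and 0.0059 with a term for them. Against RMA-KR early, whose libraries were at 187 to 206 CPM, the log2 difference was -0.74 with all libraries (SE 0.33, adjusted p = 0.327, edgeR). No gap between neighbouring group means of Prdm1 exceeded the larger SD of the 2 groups.

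Zfp683, which encodes Hobit, had 52 reads in all 24 libraries and was not tested. It was at 0 reads in 17 libraries, among them every library of RMA early, RMA late, RMA-KR early and RMA-KR late. A count of 0 allows up to 3 reads, which is 0.202 to 0.584 CPM depending on the library. Reads were found in control 2 (1 read) and control 4 (10), in RMA intermediate 2 (2 reads) and in RMA-KR intermediate 1 (23), 3 (5), 4 (3) and 5 (8). All 4 libraries low in Fos and Jun, which also had high sums of ILC1 genes, had reads of Zfp683, but the highest count was in a library outside them.

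**Figure D4:**
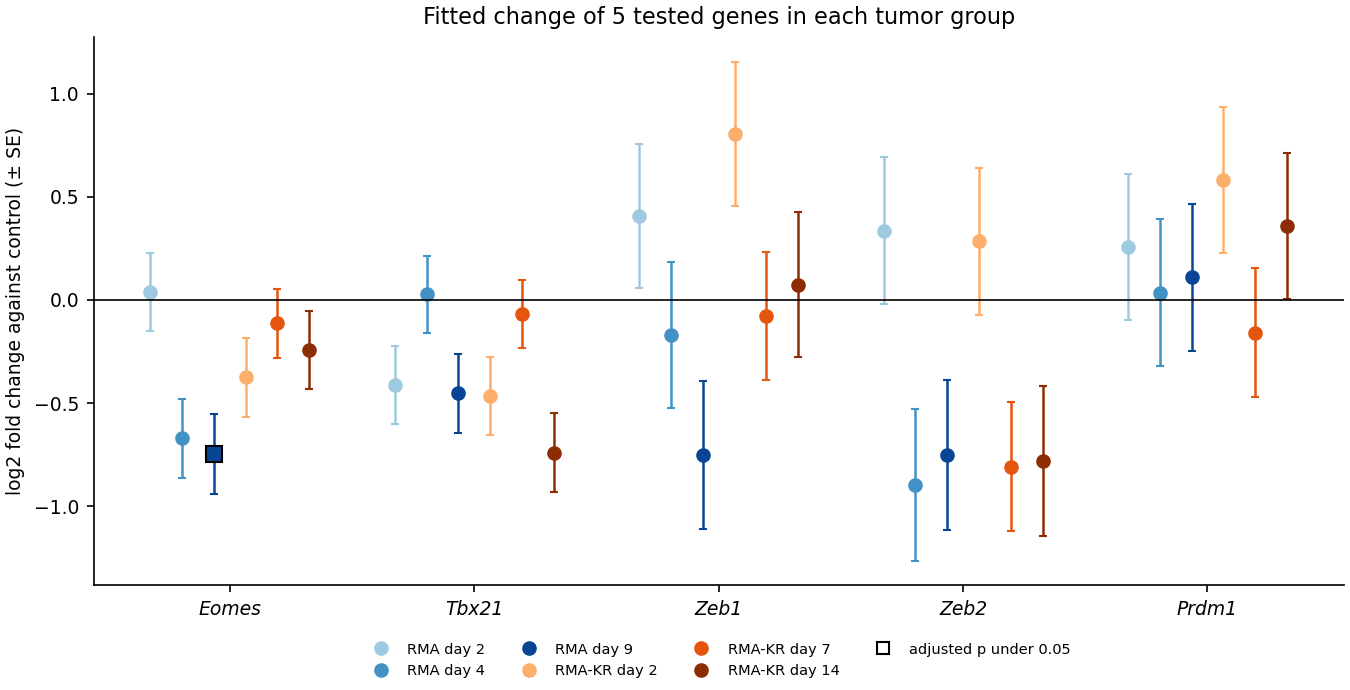
Log2 fold change against the 4 controls (vertical axis, ± SE from edgeR) of the 5 tested genes in each of the 6 tumor groups, which share those controls. The black-edged square is the only value with an adjusted p under 0.05, Eomes in RMA day 9 (-0.75), and Zeb2 is below 0 in all 4 groups after day 2.

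Ordered by group mean, few neighbours were apart by more than the larger of their SDs. For Eomes this was so only between RMA-KR early (236 CPM) and RMA intermediate (192 CPM), and for Tbx21 only between RMA-KR intermediate (831 CPM) and RMA early (655 CPM). For Zeb2 the step lay between the controls (412 CPM) and RMA late (245 CPM), with the means of all later stages below it. The mean of RMA-KR intermediate (235 ± 152 CPM) covers 316.6 and 465.2 CPM in libraries 1 and 2. Its libraries 3, 4 and 5, those low in Fos and Jun, were at 108.0 to 151.5 CPM. For Zeb1 the step lay between RMA intermediate (35.0 CPM) and RMA late (23.4 CPM).

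Other regulators of the NK lineage were taken from a list of 26 genes, 25 of them tested. Against control, 1 rose and 1 fell in RMA intermediate, 1 rose and 1 fell in RMA late, 1 rose in RMA-KR late, and none passed edgeR's test in RMA early, RMA-KR early or RMA-KR intermediate, where 0, 5 and 4 of the list and 1204, 1490 and 1011 of all 17097 tested genes had an unadjusted p under 0.05. DESeq2 called 2 of the list in RMA-KR early (Ets1 and Tox) and 0 in both others. It called 3 in RMA intermediate (Foxo3, Irf8 and Stat4) and 2 in RMA late (Irf8 and Klf2). In RMA-KR late it called 3 (Ets1, Klf2 and Tox). Between the models at the late stage it called 1, Tox, where edgeR called none. Irf8, which NK cells need for the antiviral response, rose from 1053 ± 283 CPM in the controls to 2281 ± 194 in RMA intermediate (log2 1.12, SE 0.22, adjusted p = 0.00678) and 2119 ± 141 in RMA late (1.01, adjusted p = 0.0119). Foxo3, a brake on maturation, fell from 77.8 ± 16.8 to 33.7 ± 2.2 CPM in RMA intermediate (-1.21, adjusted p = 0.0362). Klf2, a factor of lymphocyte quiescence and homing, fell from 204 ± 41.9 to 92.1 ± 6.1 CPM in RMA late (-1.15, adjusted p = 0.0126). Tox, which is needed for NK cell development, rose from 69.7 ± 6.9 to 142 ± 22.6 CPM in RMA-KR late (1.03, adjusted p = 0.0131). The median log2 fold change of the list ran from -0.13 to 0.35 over the 6 groups, where that of all tested genes ran from -0.29 to 0.01.

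These calls differed in how far they rested on single libraries. Irf8 in RMA intermediate passed without any 1 of the 7 libraries and in 9 of 9 other settings. Irf8 in RMA late was lost without control 1 (adjusted p = 0.058), control 4 (0.072) or RMA late 2 (0.071). Foxo3 was lost without control 2, 3 or 4 or without any RMA intermediate library (adjusted p = 0.071 to 0.196), and without the 4 libraries low in Fos and Jun (0.102). Klf2 was lost without control 1 (0.053), RMA late 1 (0.105) or RMA late 2 (0.094), and Tox without control 2 (0.053), control 3 (0.054) or RMA-KR late 1 (0.101).

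Genes of mature NK cells (11 tested) had 1 call in RMA intermediate, 3 in RMA late and 1 in RMA-KR late, where DESeq2 called 1, 4 and 2. Gzmb, which encodes granzyme B, rose from 1564 ± 939 CPM in the controls to 4236 ± 259 in RMA intermediate (log2 1.44, adjusted p = 0.00834) and 3540 ± 437 in RMA late (1.18, adjusted p = 0.0293). Klrg1, a late maturation receptor, rose from 431 ± 145 to 979 ± 113 CPM in RMA late (1.18, adjusted p = 0.0489). Ly6c2, which encodes Ly6C, fell from 447 ± 97.9 to 203 ± 66.5 CPM in RMA late (-1.14, adjusted p = 0.0308) and to 110 ± 35.5 CPM in RMA-KR late (-2.02, adjusted p = 0.00113). The list therefore did not move one way in RMA late, with a median log2 fold change of 0.32 beside -0.18 for all tested genes. The fall of Ly6c2 in RMA-KR late passed in every fit run. In RMA late, Klrg1 passed in 1 of 7 fits without 1 library, Ly6c2 in 2 and Gzmb in 2, with adjusted p up to 0.197, 0.203 and 0.169. Gzmb in RMA intermediate was lost only without control 1 (0.053).

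Genes of immature NK cells (11 tested) did not move one way against control. In RMA intermediate 1 was called higher and 1 lower, and in RMA late and RMA-KR late 1 each was called higher. DESeq2 called 4, 2 and 2 there. The median log2 fold change was -0.71, -0.30 and 0.28, beside -0.29, -0.18 and -0.18 for all tested genes. The gene called lower was Cd7, which fell from 364 ± 130 CPM in the controls to 128 ± 3.9 in RMA intermediate (log2 -1.51, adjusted p = 0.00197). Cd7 passed in each of the 7 fits without 1 library. Of the 8 ILC1 genes, 0 to 2 had an unadjusted p under 0.05 in edgeR against control in each of the 6 groups. It was 2 in RMA late and in RMA-KR late, where 2398 and 2430 of all 17097 tested genes had such a p-value. None of the 8 ILC1 genes was called by edgeR in these 6 groups, and DESeq2 called 1, Cd200r1 in RMA late. Their median log2 fold change was 0.91 in RMA-KR intermediate, where their summed level was 110 and 117 CPM in libraries 1 and 2 and 318 to 399 in libraries 3, 4 and 5, and -0.46 to -1.06 in the 5 other groups.

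Between the models and stages the lists held few further calls by edgeR. At the intermediate stage Irf8 (log2 0.98, adjusted p = 0.0283) and Gzmb (1.51, adjusted p = 0.00771) were higher and Stat4 (-0.63, adjusted p = 0.0462) and Cd7 (-1.89, adjusted p = 0.000335) lower in RMA than in RMA-KR. Without the 4 libraries low in Fos and Jun, the calls of Irf8 (0.319) and Gzmb (0.097) were lost and that of Cd7 was kept. The call of Stat4 was lost in 7 of 8 fits without 1 library, with adjusted p up to 0.435. Ets1, a factor of NK cell development, was lower in RMA-KR intermediate than early (-0.74, adjusted p = 0.0382) and higher late than intermediate (0.75, adjusted p = 0.0446). Both Ets1 calls were lost without those 4 libraries (0.556 and 0.712), as was that of Ltb (-3.00 for RMA-KR late against intermediate, 0.0411 with and 0.699 without). Ly6c2 was lower in RMA-KR late than intermediate (-1.62, adjusted p = 0.00939, lost when RMA-KR late 1 (0.098) or 3 (0.061) was left out).

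For each of the 5 tested genes, the genes whose levels ran most alike were found over 9471 genes by Pearson's r of log2 CPM over the 24 libraries. They were chosen as the highest, so r is a description without a test, and the points share groups and library depth. Zeb2 had the closest matches, Ddx5 (an RNA helicase, r = 0.912), Trp53inp2 (0.879) and Ahnak (0.868). Tbx21 ran with Ccnd3 (cyclin D3, r = 0.873), Spryd3 (0.812) and Ly6c2 (0.785), and Eomes with Abhd14b (0.775), Dcaf6 (0.769) and Fam53b (0.759). Zeb1 ran with Zfc3h1 (0.804), Mia3 (0.734) and Iqsec1 (0.730).

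Prdm1 ran most alike with Klf6 (r = 0.886), Dusp1 (0.859) and Chsy1 (0.850). Klf6 and Dusp1 are immediate early genes, and both were low in the 4 libraries low in Fos and Jun: Klf6 was 172 to 310 CPM there and 671 to 1577 in the other 20, and Dusp1 was 130 to 156 and 747 to 1947. Over those 20 libraries r with Prdm1 was 0.664 for Klf6, 0.633 for Dusp1 and 0.606 for Chsy1. For Zeb2 and Ddx5 it was 0.896 over the 20 libraries, and for Tbx21 and Ccnd3 0.912.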

How the data were processed

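RNA was measured in 24 libraries of sorted spleen NK cells. The authors made libraries with a poly(A) kit, sequenced them from 1 end on an Illumina instrument, trimmed with cutadapt 1.10, removed ribosomal reads with Bowtie2 2.2.8, aligned to mm10 with STAR 2.5.3a, and counted reads per Ensembl gene with HTSeq 0.6.1p1. The deposited counts per gene were used as they stand. Columns of normalized values (48) and of the authors' own fold changes and p-values (29) were not used.

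Counts were tested with edgeR 4.0.16 (R 4.3.3, quasi-likelihood, robust, TMM scaling, 7 groups in 1 fit) over 17097 of 45237 genes left by filterByExpr. P-values were adjusted by the Benjamini-Hochberg method over all tested genes, and a call is an adjusted p under 0.05. DESeq2 1.42.0 and other filters, scalings and sample sets were alternatives. Ratios of 2 genes used log2 CPM with a prior count of 2 and exact permutation tests. The fit was also run on simulated counts with changes of 2-fold or more, and the outcome is not given here. The called change of Eomes is under 2-fold, so that run does not bear on it. Total counts of 5138651 to 14863500 put the level of 3 reads at 0.202 to 0.584 CPM, which covers counting error only.

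The 6 genes and all lists were chosen with earlier results of these data known. The text names the 6 genes, the 3 genes most like each, and the called genes of each list, except for items not reported here. Sequences and motif counts came from RefSeq promoters (GRCm38.p6), and gene positions from the mm10 annotation. In 31 pairs of replicates no duplicate library was found (chi-square per degree of freedom 17.9 to 95.2).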

Additional observations from a re-analysis of the deposited data

How the results depend on the processing

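For the 5 tested genes, 858 alternative values of 48 results were computed: 735 kept their direction and side of the threshold, 44 lost a call, 43 gained one and 36 changed sign. Most of the 735 kept values had no call to lose. The calls were those of Eomes in RMA late and of Eomes and Zeb2 over the 7 groups, and all 44 lost calls are theirs. In other settings these calls passed in 7 of 9, 3 of 7 and 7 of 7. Without 1 library they passed in 2 of 7, 9 of 24 and 6 of 24 fits. The cause of the changes was not tested. The number of the 5 genes called in RMA intermediate went from 0 to 1 with no filter, at least 10 counts in every library, DESeq2, DESeq2 with its prior, only the groups compared, without the 4 libraries low in Fos and Jun, or with a term for them (both chosen after seeing the data). In RMA late it went from 1 to 0 with no filter and without the 4 libraries, and to 2 with the term. In RMA-KR intermediate it was 1 with no filter. In RMA-KR late it was 1 with DESeq2 size factors, no filter, at least 10 counts, DESeq2, its prior, or the term. For RMA intermediate against early it was 1 with size factors, no filter, only the groups compared, without the 4 or with the term, and 2 with at least 10 counts, DESeq2 or its prior. For RMA-KR intermediate against early it was 1 with no filter, at least 10 counts or DESeq2, and for RMA-KR late against intermediate 1 with no filter, DESeq2 or its prior. Over the 7 groups it was 1 instead of 2 with the replicate block, without the 4 or with the term, and 4 with DESeq2. Leaving out 1 library gave 0 to 1 in RMA late, RMA-KR late, RMA-KR intermediate against early and RMA-KR late against intermediate, and 0 to 2 over the 7 groups.

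Changes of sign were found in values that had not passed, the largest of them Prdm1 in RMA-KR late against intermediate (0.52 with all libraries). With the term they were -0.045 for Prdm1 in RMA early, -0.011 for Zeb2 in RMA-KR early, -0.27 and -0.19 for Prdm1 in RMA intermediate and late, 0.066 for Zeb1 and 0.0059 for Prdm1 in RMA-KR intermediate, and -0.025 for Zeb1 in RMA-KR late. Without the 4 libraries they were -0.042 for Prdm1 in RMA intermediate, 0.25 for Tbx21, 0.10 for Zeb1 and 0.51 for Prdm1 in RMA-KR intermediate, and -0.20 for Prdm1 in RMA-KR late against intermediate. With at least 10 counts Tbx21 in RMA intermediate was -0.0074. With the replicate block they were -0.12 and -0.043 for Prdm1 in RMA intermediate and late, and 0.10 for Zeb1 and 0.00069 for Prdm1 in RMA-KR intermediate. Without 1 library each, the ranges were -0.071 to 0.21 for Eomes in RMA early, -0.11 to 0.16 for Tbx21 and -0.093 to 0.23 for Prdm1 in RMA intermediate, -0.0051 to 0.28 for Prdm1 in RMA late, -0.25 to 0.023 for Eomes, -0.17 to 0.018 for Tbx21, -0.27 to 0.086 for Zeb1 and -0.53 to 0.032 for Prdm1 in RMA-KR intermediate, and -0.13 to 0.35 for Zeb1 in RMA-KR late. The log2 ratio of Tbx21 to Eomes ranged from -0.33 to 0.0032 (RMA-KR early) and -0.19 to 0.16 (RMA-KR intermediate), and Zeb2 to Zeb1 from -0.21 to 0.17 (RMA early) and -0.16 to 0.19 (RMA late).

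The replicate numbers did not pair the libraries: over 64 pairs with the same number the median correlation of deviations was -0.0064, and 4 were above 0.1. With the replicate block Eomes in RMA late had an adjusted p of 0.0494, and Eomes over the 7 groups lost its call (0.0795). Over all genes, calls moved with the setting: 401 (265 to 1246) in RMA intermediate, 455 (289 to 1054) in RMA late, 208 (103 to 663) in RMA-KR late, 17 (0 to 212) in RMA-KR early, 3 (0 to 79) in RMA-KR intermediate and 0 (0 to 91) in RMA early. Between the models they were 58 (0 to 437), 110 (47 to 444) and 0 (0 to 67) by stage, between stages 399 (85 to 1363) and 0 (0 to 41) in RMA and 108 (0 to 708) and 56 (11 to 345) in RMA-KR, for the interaction 0 (0 to 159) and over the 7 groups 973 (550 to 4587). Leaving out 1 library gave 191 to 277 in RMA intermediate, 143 to 581 in RMA late, 82 to 181 in RMA-KR late and 52 to 630 for RMA intermediate against early. The pseudocount changed no call of a ratio. Zfp683 had too few reads to test.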
